A study of Mus musculus with 20 samples.

Results

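The genes described here encode the signalling chains of the B cell receptor and the proteins that act directly after it: Cd79a, Cd79b, Lyn, Blk, Syk, Btk, Blnk, Plcg2, Pik3cd and Ptpn6. They are 10 of the 31053 genes in each matrix and were listed by name. They were followed in B cells, defined as cells with at least 3 unique molecular identifiers (UMIs, which mark single captured RNA molecules) of Cd79a and Cd79b together, none of Cd3d, Cd3e and Cd3g, and fewer than 20 of Jchain. The contrast was with T cells, which had at least 3 Cd3 UMIs, fewer than 3 Cd79 UMIs and fewer than 20 Jchain UMIs, and with plasma cells, which had at least 20 Jchain UMIs and no Cd3 UMI. The 20 libraries held 84129 cells after filtering, of which 30867 were B cells, 27723 were T cells and 2348 were plasma cells.

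Single-cell RNA-sequencing was done on unselected live cells of 13 mice, labelled C57BL/6N in every group. Eµ-PRMT5 mice (5 spleens) carry a human PRMT5 cDNA, Eµ-TCL1 mice (4 spleens, 3 lymph nodes) a human TCL1 cDNA, and Eµ-PRMT5/TCL1 mice (4 spleens, 4 lymph nodes) carry both, with each transgene driven in B cells by an immunoglobulin heavy chain promoter and the Eµ enhancer. There was no group without a transgene, the labels give no age, and per the study's methods the mice were taken when they met removal criteria. The study reports the longest median survival for Eµ-PRMT5 mice and the shortest for Eµ-PRMT5/TCL1 mice. Age therefore cannot be told apart from genotype in the comparisons between genotypes. The methods also place the mouse of Eµ-PRMT5 spleen 3 among the founders of that line, and describe the crossing of Eµ-PRMT5 with homozygous Eµ-TCL1 mice on C57BL/6J. The matrices hold no human PRMT5 or TCL1 gene, so the transgenes were not measured here. In 7 mice (3 Eµ-TCL1, 4 Eµ-PRMT5/TCL1) a spleen and a sub-mandibular lymph node were both sequenced. The label of the mouse of Eµ-PRMT5/TCL1 spleen 1 and lymph node 2 ends in RT, as no other mouse label does. The study uses RT for Richter's transformation, the progression of chronic lymphocytic leukaemia to an aggressive lymphoma. Whether the label means this is not known here.

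The B cell receptor is a membrane immunoglobulin held by the CD79A and CD79B chains, whose cytoplasmic tails carry the activation motifs. The Src family kinases LYN and BLK phosphorylate these motifs, SYK docks on them, and SYK then phosphorylates the adaptor BLNK, which brings BTK and phospholipase Cγ2 together; the latter releases calcium and activates protein kinase C. PI3Kδ, with the catalytic subunit encoded by Pik3cd, makes the lipid that recruits BTK, and the phosphatase SHP-1, encoded by Ptpn6, opposes the cascade. Chronic lymphocytic leukaemia cells depend on this pathway, and inhibitors of BTK and of PI3Kδ are used to treat it.

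Levels are given as CPM, the depth-normalised count, which is the UMIs of a gene scaled by the UMIs of all genes, both summed over the B cells of a library. The libraries held between 9348094 and 72440894 UMIs, and the B cell sums between 1463060 UMIs (195 cells, Eµ-TCL1 lymph node 1) and 33435504 UMIs (5136 cells, Eµ-TCL1 spleen 2). The smallest member count behind a B cell value was 77 UMIs of Btk in Eµ-TCL1 lymph node 1, and the largest was 86105 UMIs of Cd79a. All 8 B cell markers of a list that does not include the members (among them Ms4a1, Cd22, Pax5, Ebf1, Bank1, Fcmr and Spib) were above 0 in the B cells of all 20 libraries, with a summed level of 350 to 3778 CPM. Of 8 T cell markers, the gate itself holds Cd3d, Cd3e and Cd3g at 0 in B cells, and of the other 5, 2 to 5 were above 0 there, at a summed level of 1.88 to 14.3 CPM. The 8 myeloid markers summed to 43.3 to 3305 CPM in B cells, with 3 to 8 of them above 0. Syk, Lyn, Btk, Plcg2 and Ptpn6 are also used by myeloid cells, and the part of myeloid RNA in their values was not tested.

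A single library stood apart. In Eµ-PRMT5 spleen 4, 79.1% of the 800 B cells had a UMI of Mki67, Top2a, Birc5, Ccna2, Ccnb1 or Cdk1, which cycling cells express, against 3.46% to 31.97% in the other 19 libraries. Its B cells had a median of 16712.5 UMIs, against 4267 to 11175 elsewhere, and its 8 B cell markers had the lowest sum of all (350 CPM). The largest fold changes of the members, their shares of cells and their correlations are given with and without it; median levels and the other pathway genes are given with it. The Cd3 limit of the gate also removed many cells: 11093 cells had at least 3 Cd79 UMIs and a Cd3 UMI, and 8210 of them had Cd3g but neither Cd3d nor Cd3e. In 4 libraries these Cd3g-only cells outnumbered the B cells kept: 1569 against 800 in Eµ-PRMT5 spleen 4, 1625 against 1587 in Eµ-PRMT5/TCL1 lymph node 4, 938 against 825 in Eµ-TCL1 spleen 1 and 360 against 260 in Eµ-PRMT5/TCL1 spleen 2. With Cd3g left out of the gate, the B cells of Eµ-PRMT5 spleen 4 carried 1.74 Cd3g UMIs and 0.110 Trac UMIs per cell, against 6.44 and 1.15 in its 52 T cells. The comparisons were therefore repeated with such cells included, a choice made after seeing the data. Any pair of libraries shared at most 1.27% of the smaller one's cell barcodes.

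**Figure D1:**
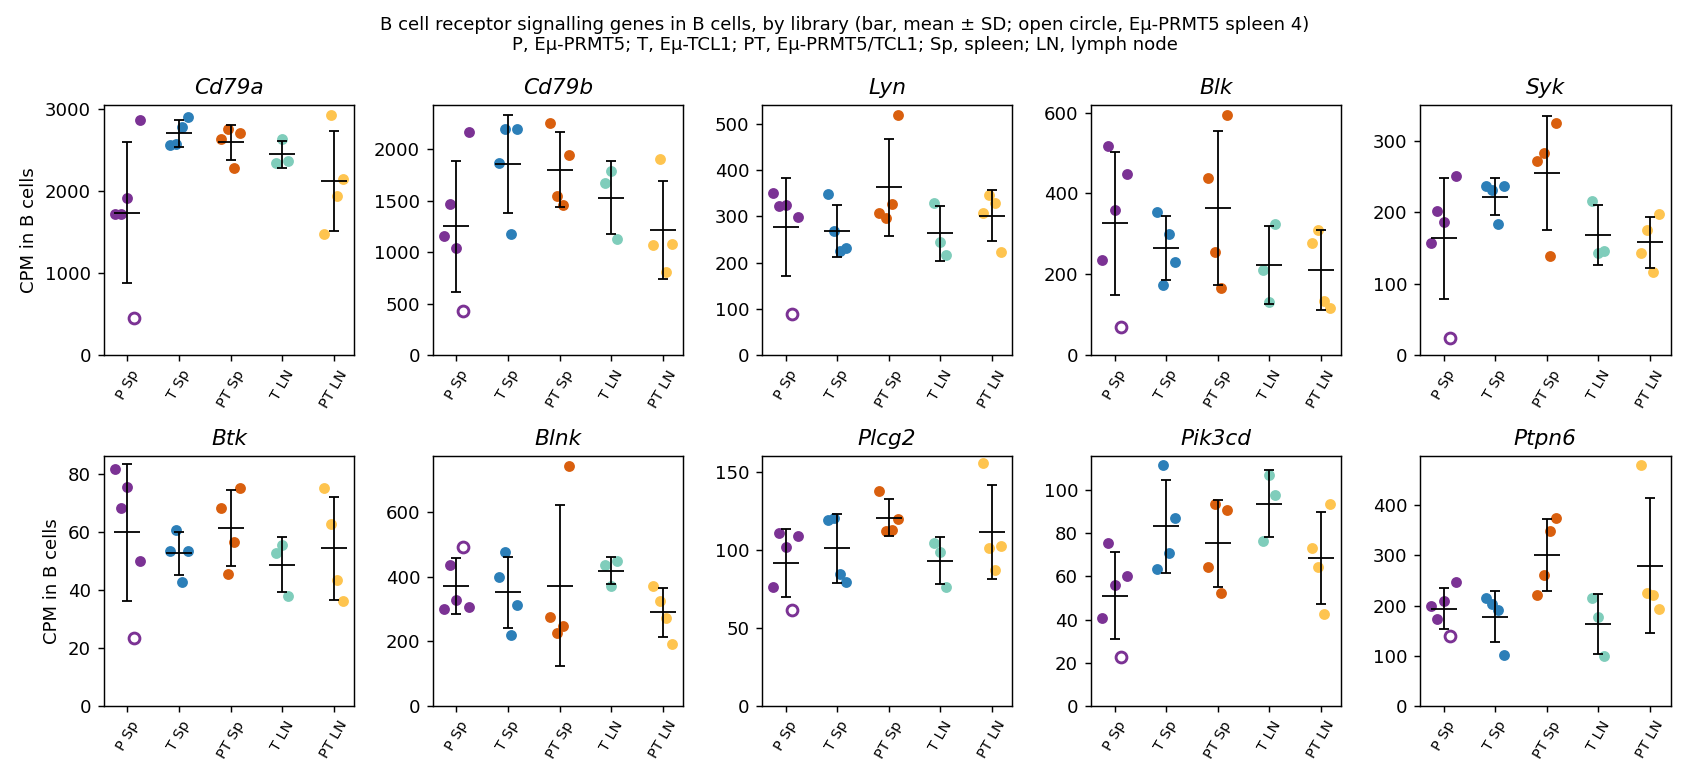
CPM of the 10 genes in B cells (y axes start at 0) for each library, by group on the x axis; the horizontal bar and whiskers are the mean and SD of a group, and the open circle is Eµ-PRMT5 spleen 4. For 9 of the 10 genes the open circle lies below the other 4 Eµ-PRMT5 spleens, while for Blnk, at 491 CPM, it lies above them.

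Cd79a and Cd79b encode the paired signalling chains of the receptor. Cd79a lies on chromosome 7 (24897381 to 24902197, plus strand) and Cd79b on chromosome 11 (106311341 to 106314762, minus strand) of the GENCODE vM21 annotation of GRCm38, the build named in the submitters' processing notes. In B cells, Cd79a was at 1717, 1725, 1916, 453 and 2870 CPM in Eµ-PRMT5 spleens 1 to 5. It was at 2562, 2575, 2785 and 2897 CPM in the Eµ-TCL1 spleens and at 2635, 2753, 2285 and 2711 CPM in the Eµ-PRMT5/TCL1 spleens. Thus 4 of 5 Eµ-PRMT5 spleens were below every other spleen, and spleen 5, at 2870 CPM, was among the highest. The lymph nodes had 2344, 2637 and 2360 CPM (Eµ-TCL1) and 1474, 2929, 1936 and 2148 CPM (Eµ-PRMT5/TCL1). Cd79b was at 1151, 1464, 1043, 429 and 2165 CPM in the Eµ-PRMT5 spleens, at 1861, 2191, 1175 and 2195 CPM in the Eµ-TCL1 spleens and at 2250, 1544, 1461 and 1947 CPM in the Eµ-PRMT5/TCL1 spleens, so that all 3 groups overlapped. In the lymph nodes it was at 1669, 1789 and 1124 CPM (Eµ-TCL1) and at 1066, 1907, 807 and 1078 CPM (Eµ-PRMT5/TCL1). The gate asks for Cd79 UMIs, so both levels were also read in B cells chosen by the other B cell markers: 83.8% to 100% of the gated B cells met that rule too, and Eµ-PRMT5 spleen 4 was again lowest for Cd79a (471 CPM) and Cd79b (447 CPM).

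Lyn and Blk encode Src family kinases that start the signal; LYN also has an inhibitory role. Both overlapped between all 5 groups, with or without Eµ-PRMT5 spleen 4. In spleen, Lyn ranged from 298 to 352 CPM in the other 4 Eµ-PRMT5 libraries, from 226 to 348 CPM in Eµ-TCL1 and from 296 to 520 CPM in Eµ-PRMT5/TCL1, and in the lymph nodes from 216 to 329 CPM and from 222 to 347 CPM. Eµ-PRMT5 spleen 4 had 89.4 CPM. Blk varied more than any other member among the 19 libraries without it, from 117 to 593 CPM (5.06-fold), and was at 69.2 CPM in that library. Lyn lies on chromosome 4 (3678115 to 3813122, plus strand) and Blk on chromosome 14 (63372836 to 63417037, minus strand).

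Syk (chromosome 13, 52583173 to 52648792, plus strand) encodes the kinase that docks on the phosphorylated receptor chains. It was at 157, 201, 185, 24.3 and 250 CPM in Eµ-PRMT5 spleens 1 to 5, at 237, 231, 183 and 236 CPM in the Eµ-TCL1 spleens, and at 272, 283, 139 and 324 CPM in the Eµ-PRMT5/TCL1 spleens. The value of Eµ-PRMT5 spleen 4 was the lowest of all 20 libraries, and the remaining spleens overlapped between groups. The lymph nodes had 216, 143 and 145 CPM in Eµ-TCL1 and 142.5, 175, 115 and 197 CPM in Eµ-PRMT5/TCL1. Btk (chromosome X, 134542336 to 134583570, minus strand), the Tec family kinase that activates phospholipase Cγ2, ranged from 36.2 to 81.6 CPM in 19 libraries and was at 23.5 CPM in Eµ-PRMT5 spleen 4.

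Blnk (chromosome 19, 40928927 to 40994535, minus strand) encodes the adaptor that joins SYK to BTK and phospholipase Cγ2. Its B cell level was 300.2, 437, 327, 491 and 306 CPM in the Eµ-PRMT5 spleens, 399, 477, 220 and 313 CPM in the Eµ-TCL1 spleens, and 274, 225, 249 and 745 CPM in the Eµ-PRMT5/TCL1 spleens. Of the 10 genes, only Blnk was higher in Eµ-PRMT5 spleen 4 than in the other 4 Eµ-PRMT5 spleens. Its highest value was in Eµ-PRMT5/TCL1 spleen 4, which also had the most Lyn (520 CPM), Blk (593 CPM) and Syk (324 CPM) of all libraries. The lymph nodes had 437, 371 and 449 CPM (Eµ-TCL1) and 370, 325, 273 and 193 CPM (Eµ-PRMT5/TCL1), and the highest value of the second group lay just below the lowest of the first. Plcg2 (chromosome 8, 117498291 to 117635142, plus strand), which encodes phospholipase Cγ2, ranged from 76.1 to 156 CPM in the 19 libraries and was at 61.5 CPM in Eµ-PRMT5 spleen 4.

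Cd79a and Blnk are shown by sequence, because Cd79a was lowest and Blnk second highest of 20 libraries in the B cells of Eµ-PRMT5 spleen 4. Both stretches run from 250 bases before to 50 bases after the RefSeq start of the gene (GRCm38.p6), 5′ to 3′ on the gene's own strand: chr7:24897247-24897546, plus strand, for Cd79a and chr19:40994172-40994471, minus strand, for Blnk. Capitals mark GGAAGT, the core of many Ets factor sites, on either strand, and ATTTGCAT, the octamer bound by Oct factors.
Cd79a: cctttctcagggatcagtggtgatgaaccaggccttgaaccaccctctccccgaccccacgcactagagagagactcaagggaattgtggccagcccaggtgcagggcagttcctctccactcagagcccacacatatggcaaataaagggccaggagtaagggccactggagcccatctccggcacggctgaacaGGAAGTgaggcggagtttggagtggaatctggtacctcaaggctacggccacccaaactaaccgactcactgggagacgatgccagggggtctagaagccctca
Blnk: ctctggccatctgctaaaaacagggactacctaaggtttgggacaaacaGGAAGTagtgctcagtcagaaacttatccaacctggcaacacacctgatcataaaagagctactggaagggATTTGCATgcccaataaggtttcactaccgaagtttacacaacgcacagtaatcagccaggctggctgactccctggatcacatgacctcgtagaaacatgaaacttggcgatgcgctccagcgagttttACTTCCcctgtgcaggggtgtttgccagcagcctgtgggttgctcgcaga
GGAAGT stood once in the Cd79a stretch and on 2 occasions in that of Blnk, where the octamer stood once; the motifs do not overlap. Of 32851 RefSeq promoters of this length, 23.8% held GGAAGT and 1.74% held the octamer. RefSeq promoters were given for 7 of the 10 genes (10 starts), and 5 of the 10 starts, from 5 genes, held GGAAGT; of the genes, 1, Blnk, held the octamer. Letters in a window are a description and not a bound site.

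Pik3cd (chromosome 4, 149649168 to 149702571, minus strand) encodes the catalytic subunit of PI3Kδ. It was at 40.9, 75.3, 55.9, 22.4 and 60.2 CPM in the Eµ-PRMT5 spleens, at 63.2, 112, 70.7 and 87.0 CPM in the Eµ-TCL1 spleens, and at 64.2, 93.6, 52.3 and 90.9 CPM in the Eµ-PRMT5/TCL1 spleens. In 4 of 5 Eµ-PRMT5 spleens it was below the lowest Eµ-TCL1 spleen. The lymph nodes had 76.6, 107 and 97.5 CPM (Eµ-TCL1) and 73.1, 64.4, 42.5 and 93.7 CPM (Eµ-PRMT5/TCL1). Ptpn6 (chromosome 6, 124720707 to 124738714, minus strand) encodes SHP-1, the phosphatase that restrains receptor signalling. Ptpn6 was at 199, 173, 210, 140 and 248 CPM in the Eµ-PRMT5 spleens and at 216, 204, 192 and 102 CPM in the Eµ-TCL1 spleens. The 4 Eµ-PRMT5/TCL1 spleens, at 222, 261, 349 and 374 CPM, were all above the Eµ-TCL1 spleens. In lymph nodes it was at 215, 178 and 98.9 CPM (Eµ-TCL1) and at 480, 226, 220 and 193 CPM (Eµ-PRMT5/TCL1), where the groups overlapped.

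**Figure D2:**
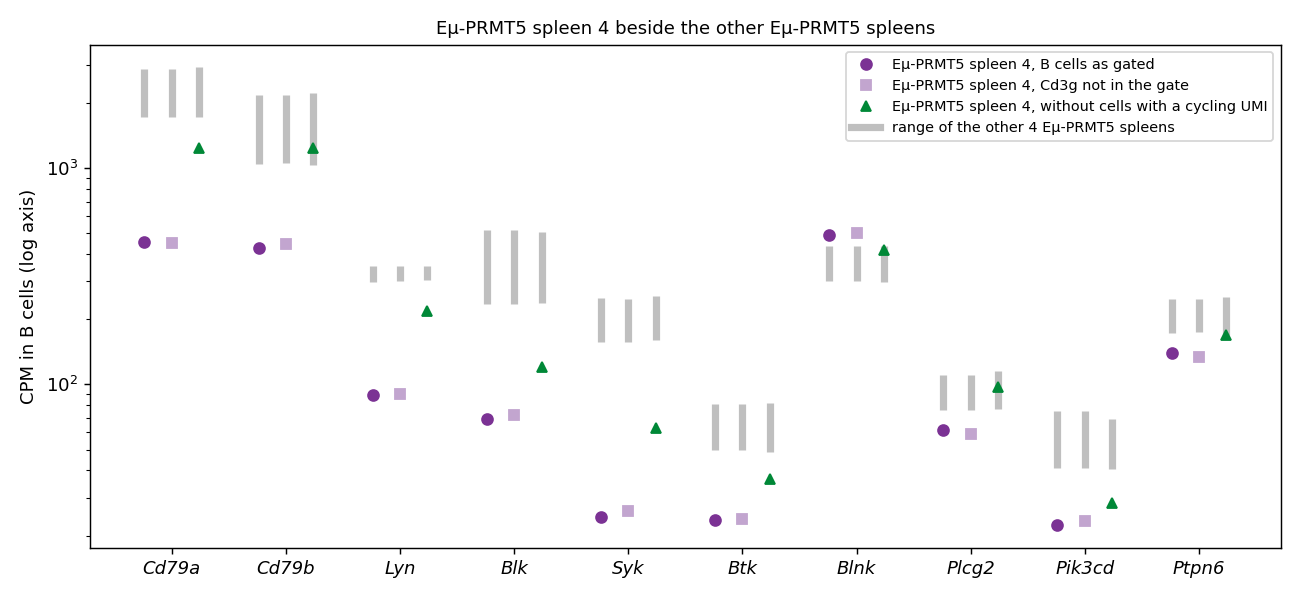
CPM in B cells (log axis) of the 10 genes in Eµ-PRMT5 spleen 4 (symbols, for B cells as gated, with Cd3g left out of the gate, and without cells that have a cycling UMI) each beside the range of the other 4 Eµ-PRMT5 spleens under the same choice of cells (grey bars). As gated, 9 genes lie below their grey bar and Blnk above it; without cycling cells, Cd79b, Blnk and Plcg2 lie inside theirs and Ptpn6, at 169.2 CPM, at its lower end (169.1 CPM).

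In Eµ-PRMT5 spleen 4, 9 of the 10 genes were higher in the B cells with no cycling UMI than in all B cells. Of the 10 genes, 8 were at their lowest of all 20 libraries there, and 8 were so with Cd3g left out of the gate. In the 167 B cells of that library with no cycling UMI, Cd79a was at 1233 CPM, Cd79b at 1236 CPM, Syk at 62.8 CPM and Lyn at 219 CPM, and 6 of 10 genes were still the lowest of the 20 libraries. Blnk was at 418 CPM in those cells, within the other Eµ-PRMT5 spleens (298.9 to 437 CPM). Ms4a1 (CD20) was at 64.5 CPM in all gated B cells of this library, against 328 to 967 CPM in the other 4. The labels do not set this mouse apart, and the cause was not tested.

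The first comparison asks how B cells under PRMT5 alone differ from those under TCL1 alone. The B cell gate does not separate Cd5-positive, leukaemia-like B cells from other B cells. The study reports that such cells were not the whole B cell compartment in either model. B cells were 7.90% to 40.8% of the kept cells in Eµ-PRMT5 spleens and 15.6% to 82.3% in Eµ-TCL1 spleens. The part of this mixture in this and the later comparisons was not tested. In the spleens, none of the 10 genes passed an adjusted p of 0.05 in edgeR's quasi-likelihood test (Benjamini-Hochberg over 11534 genes), where 0.026% of all genes did (3 genes; 1962 at an unadjusted p under 0.05). DESeq2 called 674 genes, among them 1 member. Of the members, 6 were lower and 4 higher in Eµ-PRMT5, with a median log2 fold change of -0.16, against 0.015 for all genes. In the same B cell sums the 7 plasma markers summed to 468 to 2130 CPM in Eµ-PRMT5 against 1210 to 3184 CPM in Eµ-TCL1 spleens. The 8 B cell markers summed to 350 to 2685 against 1294 to 2020 CPM, and the part of either in the members' values was not tested. Pik3cd had a log2 fold change of -0.82 ± 0.26 (SE; edgeR adjusted p = 0.156; DESeq2 adjusted p = 0.0497) and Cd79a of -0.76 ± 0.34 (edgeR adjusted p = 0.285). Cd79b, at -0.67 ± 0.35, and Syk, at -0.57 ± 0.42, had edgeR adjusted p of 0.355 and 0.509. Without Eµ-PRMT5 spleen 4 these 4 values were -0.68, -0.54, -0.48 and -0.31, still with no member called (edgeR adjusted p of Pik3cd 0.1001), while the genes called came to 288. The edgeR adjusted p of Pik3cd ran from 0.1001 to 0.346 when single libraries were left out. Btk, Lyn, Blk, Blnk and Ptpn6 lay between -0.086 and 0.16, and Plcg2 at -0.23. Without Eµ-PRMT5 spleen 4, Blk came to 0.39, Btk to 0.22, Lyn to 0.10, Ptpn6 to 0.059, Plcg2 to -0.19 and Blnk to -0.21.

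Eµ-PRMT5/TCL1 mice are set against Eµ-TCL1 mice in 2 comparisons, in spleen and in lymph node. In spleen, where 0.00867% of genes were called by edgeR (1 of 11534; 520 at an unadjusted p under 0.05; 21 by DESeq2), no member was called by either tool. Ptpn6 had the largest difference, 302 ± 71.9 CPM (SD, n = 4) in Eµ-PRMT5/TCL1 against 178 ± 51.7 CPM (SD, n = 4) in Eµ-TCL1 spleens, a log2 fold change of 0.65 ± 0.27 (SE; edgeR adjusted p = 1). The groups did not overlap, as was so for 2.07% of the 11534 genes in this direction (239 genes). Marker levels in the same B cell sums, given as values with no test, were as follows: the 7 plasma markers summed to 918 to 1455 CPM in Eµ-PRMT5/TCL1 against 1210 to 3184 CPM in Eµ-TCL1 spleens, the 8 B cell markers to 2004 to 3778 against 1294 to 2020 CPM, and the 8 myeloid markers overlapped (65.6 to 2088 against 287 to 1376 CPM). Their part in the Ptpn6 values was not tested. The other 9 members lay between -0.25 (Pik3cd) and 0.31 (Lyn) on the log2 scale. When single libraries were left out, Blnk ran from -0.50 to 0.075, Blk from 0.093 to 0.50 and Pik3cd from -0.42 to -0.095. In lymph node, 0% of 10892 genes were called by edgeR (737 at an unadjusted p under 0.05; 64 by DESeq2) and again no member by either tool. Ptpn6 had the largest log2 fold change there too, 0.84 ± 0.33 (edgeR adjusted p = 0.719), at 280 ± 134 CPM (SD, n = 4) against 164 ± 59.4 CPM (SD, n = 3). The Ptpn6 value of lymph node 1 (480 CPM) stood above the other Eµ-PRMT5/TCL1 nodes, at 193 to 226 CPM, and without it the log2 fold change was 0.54 (edgeR adjusted p = 0.586). In that node the 7 plasma markers had their lowest sum of the 7 nodes (602 CPM, against 890 to 2341 CPM) and the 8 B cell markers their highest (3330 CPM, against 1317 to 2305 CPM). Blnk was at -0.47 ± 0.22 (edgeR adjusted p = 0.742), with groups that did not overlap, as for 4.38% of the 10892 genes in this direction. A node and a spleen come from the same mouse in 7 cases, so the Ptpn6 values of both tissues are not separate evidence.

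A further comparison is of Eµ-PRMT5/TCL1 against Eµ-PRMT5 spleens. It shares its libraries with both comparisons above. No member was called by edgeR or DESeq2, with 0% of 11534 genes called by edgeR (1010 at an unadjusted p under 0.05) and 114 by DESeq2. The members were higher in Eµ-PRMT5/TCL1 in 9 of 10 cases, with a median log2 fold change of 0.46, against -0.040 for all genes. Syk had 0.65 ± 0.42 (edgeR adjusted p = 0.655), Ptpn6 0.62 ± 0.25 (adjusted p = 0.528), Cd79a 0.60 ± 0.34 (adjusted p = 0.633) and Pik3cd 0.57 ± 0.26 (adjusted p = 0.570). Blnk, at -0.15, was the exception. For Plcg2, at 0.40 ± 0.20 (edgeR adjusted p = 0.590), the groups did not overlap, as for 1.42% of the 11534 genes in this direction. Without Eµ-PRMT5 spleen 4, Ptpn6 came to 0.59, Pik3cd to 0.43, Syk and Cd79a to 0.39, Plcg2 to 0.35, Cd79b to 0.34, Lyn to 0.20 and Blnk to 0.11. Only Blk (-0.10) and Btk (-0.098) were then lower. In the same B cell sums the 8 B cell markers summed to 2004 to 3778 CPM in Eµ-PRMT5/TCL1 against 350 to 2685 CPM in Eµ-PRMT5 spleens. Cycling B cells were 12.1% to 31.97% against 3.46% to 79.1%, or at most 8.03% in Eµ-PRMT5 without spleen 4. The part of either in the members' values was not tested.

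**Figure D3:**
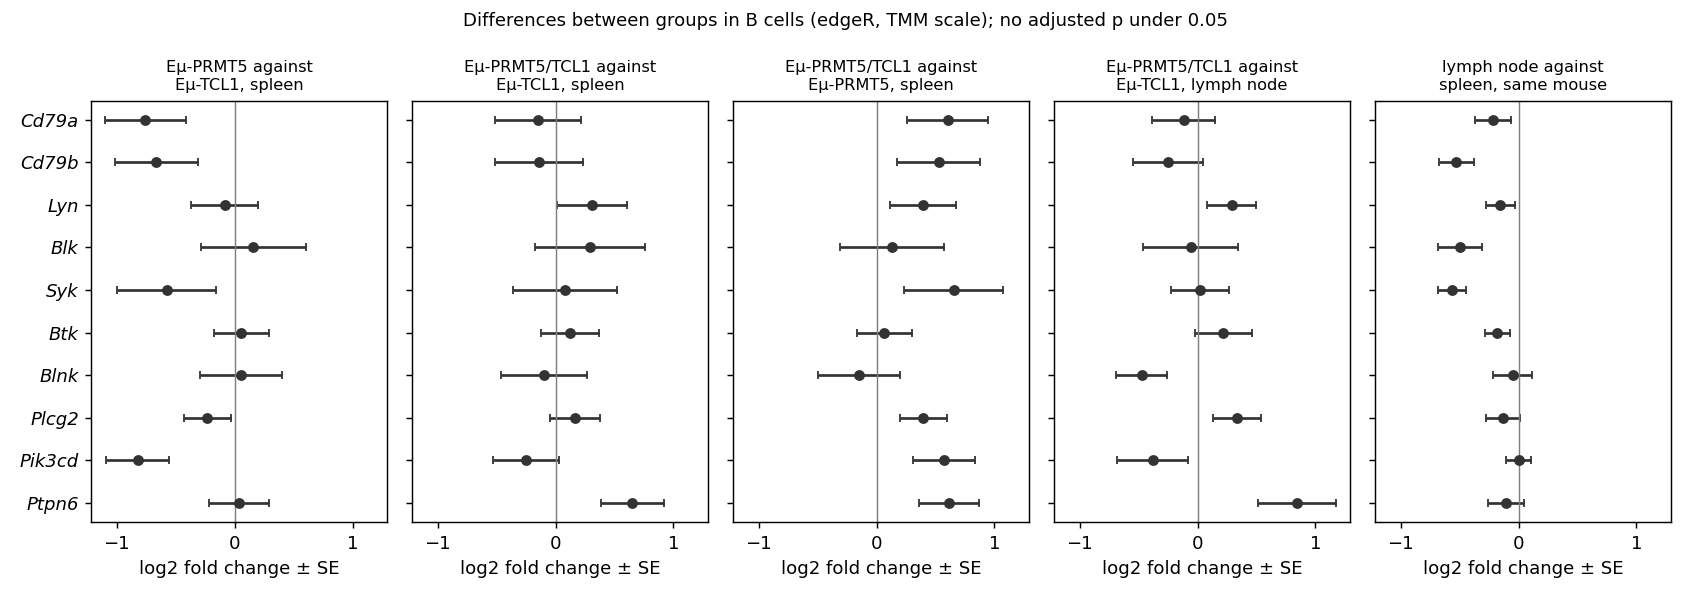
Log2 fold change (x axis, point, with its SE as whisker) of each gene in the B cells for 5 comparisons from edgeR. No gene has an adjusted p under 0.05; Ptpn6 is to the right in the 3 panels with Eµ-PRMT5/TCL1 in the numerator (0.65, 0.62 and 0.84), and Cd79b (-0.53), Syk (-0.56) and Blk (-0.50) are to the left in the panel of lymph node against spleen.

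Lymph node was compared with spleen within the 7 mice with both tissues. Deviations from the group mean correlated between the tissues of a mouse (0.288 to 0.639 over genes, 7 of 7 pairs), and the mouse was a block in the fit. Syk was lower in the lymph node in 7 of 7 mice: 216 against 237, 143 against 231 and 145 against 236 CPM in the Eµ-TCL1 mice, and 142.5 against 324, 175 against 272, 115 against 139 and 197 against 283 CPM in the Eµ-PRMT5/TCL1 mice. Its log2 fold change was -0.56 ± 0.12 (SE; edgeR adjusted p = 0.12). Cd79b was also lower in 7 of 7 mice, with log2 ratios of CPM from -0.97 to -0.16 and a fitted change of -0.53 ± 0.15 (edgeR adjusted p = 0.229). Blk was lower in 6 of 7 (-0.50 ± 0.19, edgeR adjusted p = 0.362), and Eµ-TCL1 lymph node 3 was the exception with 326 against 231 CPM. Btk was lower in 7 of 7 mice too, with log2 ratios of CPM from -0.50 to -0.0044 and a fitted change of -0.18 ± 0.11. Of all 11905 genes tested, 2.73% were lower in every mouse. Markers of other cells in the same B cell sums were also lower in the node: the 5 erythroid markers in 7 of 7 mice (0.496 to 4.40 CPM against 3.38 to 641 CPM) and the 8 myeloid markers in 5 of 7 (43.3 to 3305 CPM against 65.6 to 2088 CPM). In the other 2 mice the myeloid markers were higher in the node, at 780 against 484 CPM (Eµ-TCL1 lymph node 3) and 3305 against 2088 CPM (Eµ-PRMT5/TCL1 lymph node 3). The part of these other cells in the tissue differences was not tested.

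None of the 10 genes was called in edgeR, where 0.0504% of 11905 genes were (6 genes; 1323 at an unadjusted p under 0.05). DESeq2 called 290 genes, among them Syk (adjusted p = 0.000197) and Cd79b (adjusted p = 0.00192), both lower in the lymph node. Over 19 alternatives the adjusted p of Syk ran from 0.000197 to 0.502 and its log2 fold change from -0.61 to -0.51. The median over the members was -0.17, against 0.015 for all genes, and 9 of 10 were lower in the fit. Pik3cd, at 0.00035, was not, and Blnk, at -0.049 in the fit, was higher in the node in 4 of 7 mice. By mouse, between 5 (Eµ-PRMT5/TCL1 lymph node 2) and 9 of 10 genes were lower in the node. No member was called for a difference of the tissue effect between the genotypes: 0% of 11905 genes were called for that interaction in edgeR (237 at an unadjusted p under 0.05; 1 by DESeq2), and the members' interaction values lay between -0.38 ± 0.39 (Blk) and 0.21 ± 0.30 (Plcg2).

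**Figure D4:**
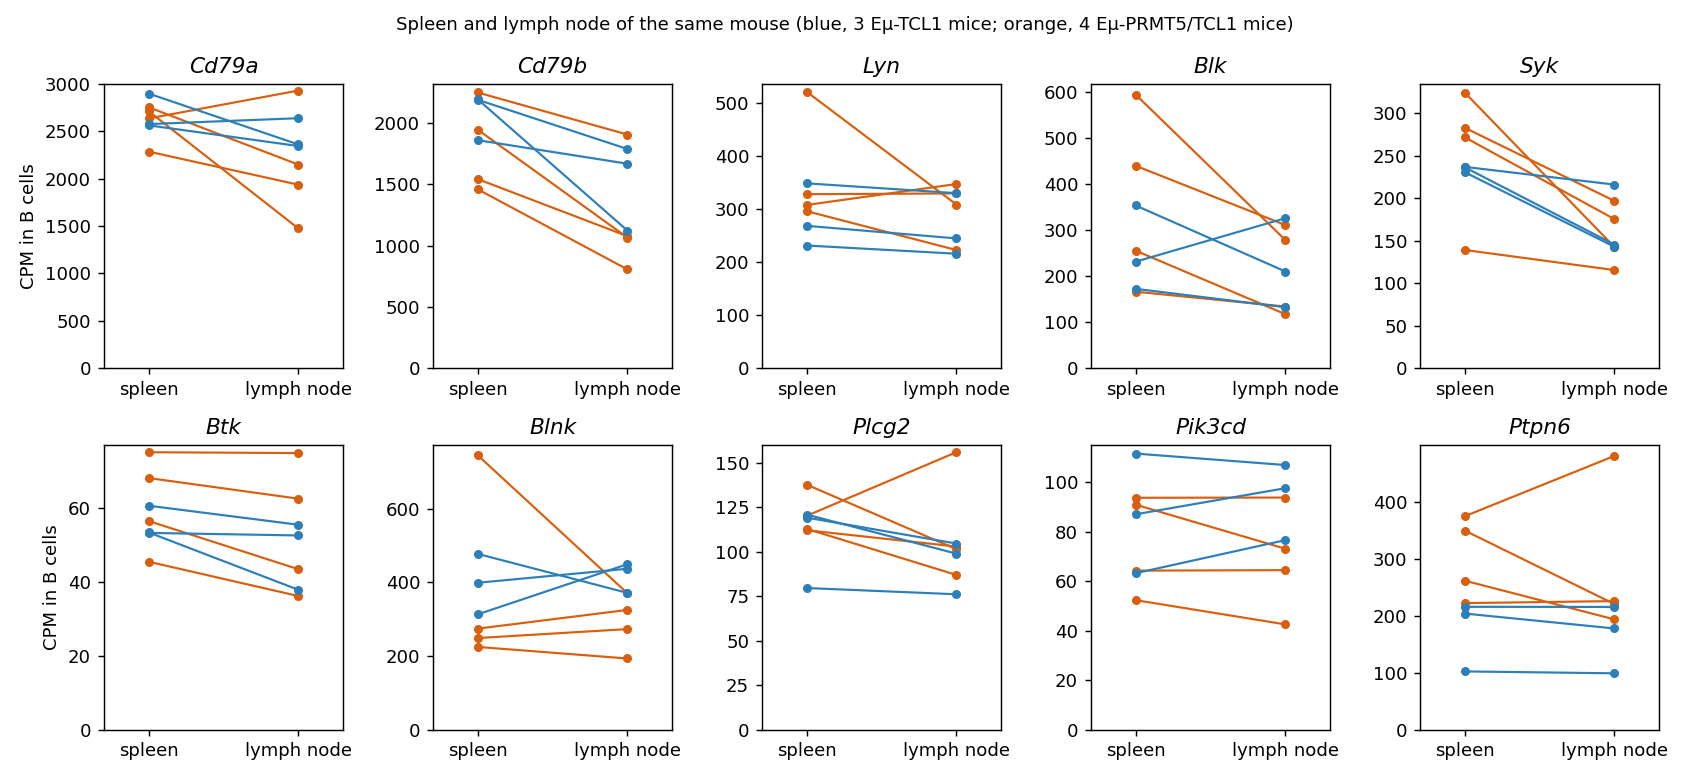
CPM in B cells (y axes start at 0) in spleen and lymph node, joined by a line for each of the 7 mice with both tissues (blue, Eµ-TCL1; orange, Eµ-PRMT5/TCL1). All 7 lines go down from spleen to lymph node for Cd79b, Syk and Btk, while those of Pik3cd, Blnk and Ptpn6 cross.

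The contrast with T cells asks in which lymphocytes each member is found. In 13 spleens, Blk, Blnk, Btk, Plcg2 and Lyn were higher in the B cells than in the T cells of every library, with no overlap between the classes, as were 2.38% of the 10590 genes tested. Median levels were 299.9 CPM in B cells and 0.857 CPM in T cells for Blk, 313 and 1.25 CPM for Blnk, 111 and 4.18 CPM for Plcg2, 307 and 17.9 CPM for Lyn, 56.5 and 0.937 CPM for Btk, and 231 and 5.26 CPM for Syk. Syk was also higher in B cells in 13 of 13 spleens, but its B cell level in Eµ-PRMT5 spleen 4 (24.3 CPM) was below the T cell level of Eµ-PRMT5/TCL1 spleen 2 (24.6 CPM). Ptpn6 was present in both, at 210 CPM in B cells and 78.1 CPM in T cells (31.7 to 160), and was higher in B cells in 12 of 13 spleens. Pik3cd was the reverse case, with 64.2 CPM in B cells and 86.8 CPM in T cells and a higher T cell level in 9 of 13 spleens. Cd79a (2575 and 4.66 CPM) and Cd79b (1544 and 11.8 CPM) define the gates and were not tested.

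All 8 members tested differed between B and T cells in edgeR with the library as a block, 7 higher and 1 lower in B cells, where 29.8% of 10590 genes were higher and 28% lower. The log2 fold changes were 8.54 ± 0.40 (SE) for Blk, 8.10 ± 0.42 for Blnk, 5.34 ± 0.37 for Btk, 5.20 ± 0.42 for Syk, 4.50 ± 0.35 for Plcg2, 4.10 ± 0.37 for Lyn and 1.49 ± 0.23 for Ptpn6 (edgeR adjusted p from 1.25e-10 to 5.23e-05). The median over the members was 4.85, against 0.0089 for all genes. Without Eµ-PRMT5 spleen 4 all 8 were still called, at 8.61 for Blk, 8.43 for Blnk, 5.38 for Btk, 5.30 for Syk, 4.62 for Plcg2, 4.26 for Lyn, 1.48 for Ptpn6 and -0.37 for Pik3cd. Pik3cd was lower by a small margin, -0.34 ± 0.14 (edgeR adjusted p = 0.0443), and this call was lost without a filter on low counts (adjusted p = 0.0804), without the block (0.151) and when any of 8 single libraries was left out (up to 0.0879). The T cell sums also held myeloid UMIs: the 8 myeloid markers reached 5746 CPM in Eµ-PRMT5/TCL1 spleen 2, where Lyn was at 58.7 CPM and Syk at 24.6 CPM, and 7640 CPM in Eµ-PRMT5 spleen 4 (52 T cells), where Blnk was at 25.8 CPM. Across the 20 libraries these myeloid markers ranged from 0 to 7640 CPM in T cells, with 0 to 8 of 8 above 0. The 8 B cell markers summed to 2.21 to 22.1 CPM in T cells, with 17.7 CPM in Eµ-PRMT5 spleen 4. The part of myeloid or B cell RNA in the residual levels was not tested.

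**Figure D5:**
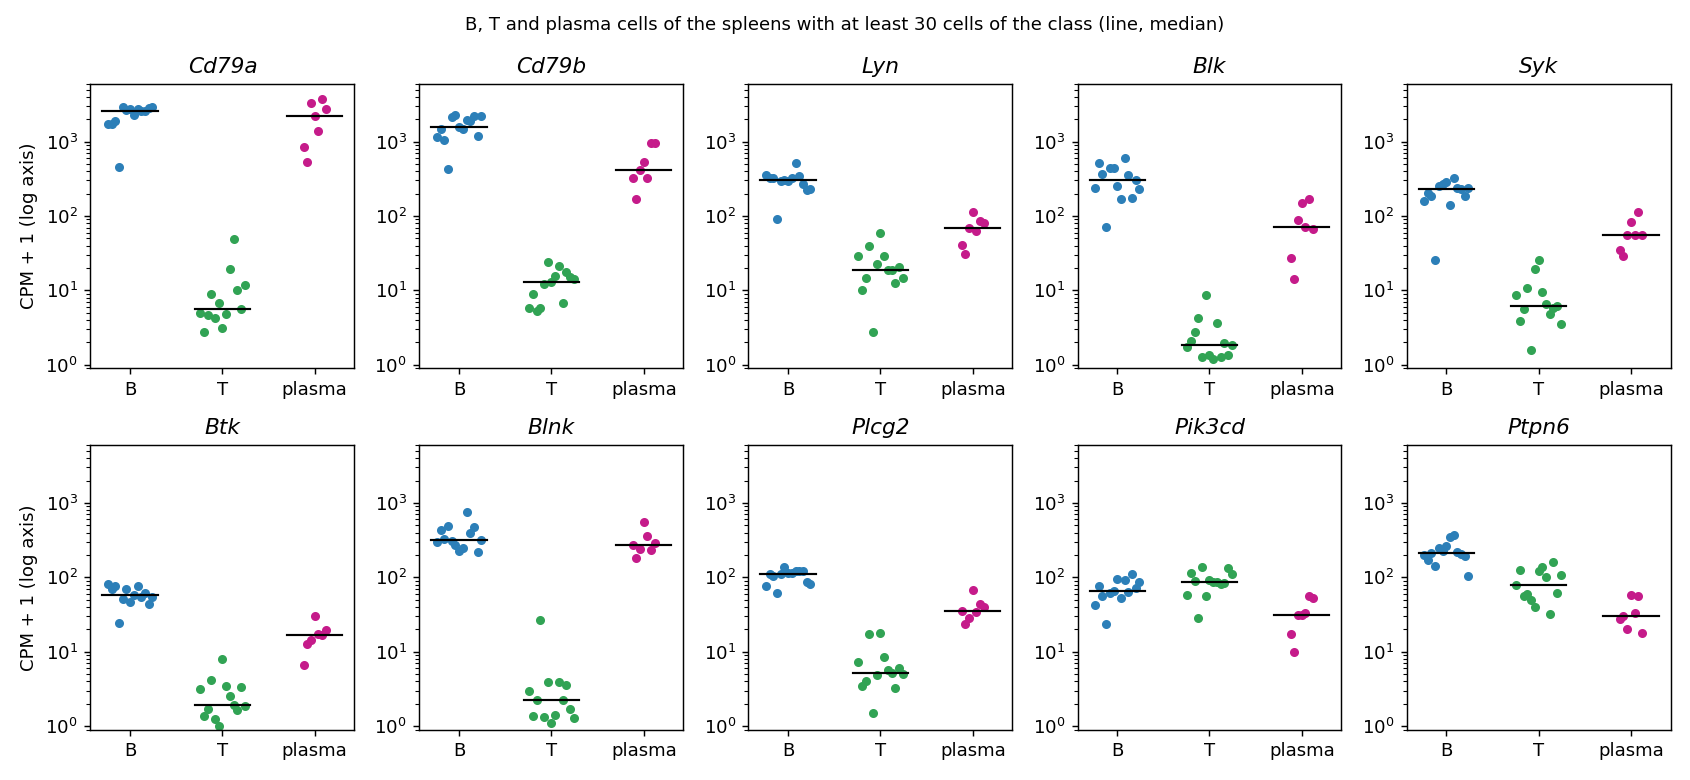
CPM + 1 (log axis) of the 10 genes in B, T and plasma cells of the spleens with at least 30 cells of the class (13, 13 and 7 libraries); each point is a library and the line is the median. T cells sit low for all genes but Pik3cd and Ptpn6; plasma cells have lower medians than B cells for all 10, and within the 7 spleens with both classes the ranges overlap for Cd79a, Blnk and Pik3cd.

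Plasma cells carried less of most members than B cells. In the 7 spleens with at least 30 plasma cells (48 to 609 cells), Syk had a median of 236 CPM in B cells and 54.4 CPM in plasma cells, Lyn 324 and 67.5 CPM, Blk 353 and 71.1 CPM, Btk 68.2 and 15.6 CPM, Plcg2 102 and 34.1 CPM, and Ptpn6 210 and 28.9 CPM, each lower in plasma cells in 7 of 7 libraries and with no overlap. On this scale 20.4% of the 10122 genes tested were lower with no overlap, and the median gene had a log2 fold change of -0.93. Cd79b, a gate gene of the B cells, had 1861 and 419.7 CPM. Cd79a overlapped, with 529 to 3678 CPM in plasma cells and 1717 to 2897 CPM in B cells. Blnk overlapped as well, with 180 to 547 CPM (median 274) in plasma cells against 220 to 745 CPM (median 313) in B cells. Beside Jchain, on which they were gated, these plasma cells held 6 of 6 plasma markers above 0 (Xbp1, Mzb1, Sdc1, Prdm1, Tnfrsf17 and Derl3). The B cells of the same 7 spleens also held all 7 plasma markers above 0, so this count does not set the classes apart. With Jchain included, these markers summed to 16800 to 39362 CPM in the plasma cells and to 468 to 3184 CPM in the B cells. The gate on Jchain fixes part of that difference. In the plasma cells the 8 B cell markers, 7 or 8 of them above 0, summed to 92.0 to 1027 CPM, the most in Eµ-PRMT5/TCL1 spleen 4 (609 plasma cells). Over all libraries 2306 of the 2348 plasma cells had at least 3 Cd79 UMIs. The 8 myeloid markers summed to 15.8 to 6469 CPM, with 6 to 8 above 0, and were highest in Eµ-PRMT5 spleen 3 (2459 CPM) and Eµ-TCL1 spleens 3 (3025 CPM) and 4 (6469 CPM). The 5 erythroid markers summed to 0 to 48.1 CPM in 6 of these libraries and to 6239 CPM in Eµ-TCL1 spleen 3. The part of these other cells, B cells included, in the plasma cell values, and in the overlap of Cd79a and Blnk, was not tested.

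The size of these differences depends on the scale. Immunoglobulin genes made up 22.5% to 56.7% of the UMIs of the plasma cells and 0.685% to 3.52% of those of spleen B cells. The edgeR fit scales to the bulk of genes (TMM), and on plain CPM the median gene was 0.86 lower on the log2 scale in plasma cells than on that scale. Relative to the bulk of genes, edgeR called 7 of 8 members: 6 lower, where 18.7% of 10122 genes were lower, and 1 higher, where 18.9% were. Ptpn6 fell by 1.88 ± 0.16 (SE, log2), Blk by 1.54 ± 0.26, Lyn by 1.49 ± 0.16, Btk by 1.18 ± 0.20, Syk by 1.17 ± 0.16 and Plcg2 by 0.63 ± 0.18 (edgeR adjusted p from 2.28e-06 to 0.0153). The median over the members was -1.18, against -0.074 for all genes. Blnk was higher by 0.59 ± 0.12 (edgeR adjusted p = 0.00212), but with total UMIs as the scale, a choice made after seeing the data, it was at -0.26 (edgeR adjusted p = 0.173), and without the block its call was lost (adjusted p = 0.0927). Pik3cd, at -0.38 ± 0.16 (edgeR adjusted p = 0.072), was called on total UMIs (-1.21, adjusted p = 0.000141). On that scale 609 of all genes were called higher and 6825 lower, against 1917 and 1890 on the TMM scale. The call of Plcg2 was lost when the first spleen of the Eµ-TCL1 group (edgeR adjusted p = 0.0576) or of the Eµ-PRMT5/TCL1 group (0.0589) was left out, and that of Pik3cd was gained without Eµ-TCL1 spleen 3 (0.0427).

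The share of cells with a UMI was also read. Each cell was thinned to 1000 UMIs, which no cell fell short of. B cells, with a median of library medians of 7259 UMIs, were deeper than T cells, with 5135. The median shares over 20 libraries were 87.8% of B cells for Cd79a and 74.3% for Cd79b, in cells that the gate chose by their Cd79 UMIs. The part of the gate in these shares was not tested. For the members outside the gate the median share was 27.7% for Blnk, 26.9% for Lyn, 23.2% for Blk, 19.6% for Ptpn6, 16.7% for Syk, 10.4% for Plcg2, 6.78% for Pik3cd and 6.25% for Btk. In T cells the shares were 0.0154% for Blnk, 0.0379% for Blk, 0.241% for Syk and 0.866% for Lyn, and 6.09% for Ptpn6 and 8.26% for Pik3cd. In plasma cells of the 12 libraries with at least 30, Blnk was found in 20.1% and Syk in 5.60%. With all UMIs of a cell, the B cell shares of the 8 members outside the gate were 33.3% (Btk) to 84.7% (Blnk). Without Eµ-PRMT5 spleen 4, a choice made after seeing the data, the thinned B cell shares moved by at most 1.61 percentage points (Blk, to 24.8%), and the T cell share of Blnk came to 0.0307%.

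Across the 20 libraries the members did not move as 1 block in B cells. Some of these libraries are the spleen and the lymph node of the same mouse, so they are not all independent. The Spearman correlation (log2 CPM, n = 20 libraries that share cell gating and differ in depth, given as a description) of each gene with the mean of the other 9 was 0.78 for Plcg2, 0.59 for Cd79b and Syk, 0.50 for Blk, 0.44 for Btk, 0.43 for Ptpn6, 0.38 for Lyn, 0.19 for Cd79a and Blnk, and 0.092 for Pik3cd. Among pairs, Cd79a with Cd79b had 0.75, Cd79b with Syk 0.73, Plcg2 with Ptpn6 0.71 and Btk with Lyn 0.65, while Lyn with Pik3cd had -0.35. The 5 genes whose B cell level was most like the mean of the members, of 11726 genes, were Rasgrp1 (0.90), Rgs14 (0.88), Ikzf3 (0.85), Tbc1d10c (0.84) and Evi2b (0.84). These values rest in part on Eµ-PRMT5 spleen 4. Over the 19 libraries without it, a choice made after seeing the data, the correlation with the mean of the others was 0.66 for Plcg2, 0.63 for Cd79b, 0.58 for Syk, 0.44 for Blk, 0.35 for Blnk, 0.34 for Ptpn6, 0.28 for Btk, 0.24 for Lyn, 0.11 for Cd79a and -0.023 for Pik3cd. Cd79a with Cd79b had 0.71, Cd79b with Syk 0.68, Plcg2 with Ptpn6 0.67, Btk with Lyn 0.59 and Lyn with Pik3cd -0.58. Of the 5 most alike genes, 2 remained, Rgs14 (0.88) and Rasgrp1 (0.84), and Rap1a (0.84), Mapk14 (0.83) and Siglecg (0.80) took the other places.

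Other genes of the pathway were read from 6 lists: 5 coreceptors, 13 adaptors and exchange factors, 7 genes from protein kinase C to NF-kB, 10 from calcium to NFAT, 14 inhibitors and 8 T cell counterparts. No gene of any list was called by edgeR in any of the 6 comparisons within B cells. The 4 with the lowest unadjusted p for Eµ-PRMT5 against Eµ-TCL1 spleens were Nfatc2 (log2 fold change -0.91), the complement receptor Cr2 (4.17), the Src family kinase Fyn (2.40) and the PI3K adaptor Pik3ap1 (1.09), with edgeR adjusted p from 0.129 to 0.158. For Eµ-PRMT5/TCL1 against Eµ-TCL1 they were Cd38 (0.94), Plcg1 (-0.89), the inhibitory Fc receptor Fcgr2b (0.94) and Vav3 (2.26) in spleen, with an edgeR adjusted p of 1. In lymph node they included Cd38 (0.81), the GTPase Rac2 (0.75) and the ubiquitin ligase Cblb (0.87), with edgeR adjusted p from 0.522 to 0.648. Cr2 (-3.93), Nfatc2 (0.79), Sla2 (2.77) and Fcgr2b (1.19) led Eµ-PRMT5/TCL1 against Eµ-PRMT5 (edgeR adjusted p from 0.451 to 0.502). Fyn (1.29), Pik3ap1 (0.84), the calcium channel Itpr2 (0.85) and Fcgr2b (-0.61) led lymph node against spleen (edgeR adjusted p from 0.109 to 0.194). Sla2 (-2.73), Sh3bp2 (-1.001), Lck (0.94) and Itpr2 (0.64) led the interaction, with an edgeR adjusted p of 1.

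Between cell classes, the counts of each list stand beside those of all genes, of which 29.8% were higher and 28% lower in B against T cells (57.7% in either direction), and 18.9% higher and 18.7% lower in plasma against B cells (37.6%). With both directions counted, the calcium branch in B against T cells, and the adaptors, the calcium branch and the T cell counterparts in plasma against B cells, had shares near or under those of all genes. In B against T cells, 3 of 4 coreceptors tested were called higher, among them Cd81 (4.47), and Ptprc (-1.73) lower. Of the adaptors, 9 of 13 were higher and 3 lower, with Rasgrp3 (7.71) and Vav2 (3.94) the largest. The T cell counterparts were lower in 8 of 8, among them Cd247 (-9.32). The inhibitors had 9 higher, such as Dok3 (5.62) and Cd22 (4.98), and 4 lower, led by Sla2 (-5.87). The protein kinase C branch had 5 higher and 2 lower of 7, led by Prkcb (2.13), and the calcium branch 2 higher and 4 lower of 10, led by Nfatc2 (-1.84). In plasma against B cells, the calls were mostly lower: 8 of 13 inhibitors, led by Cd22 (-3.03) and Cd72 (-3.02), with Ptpn22 (1.51) higher; 3 of 4 coreceptors, among them Cd38 (-1.50), with Cd81 (1.12) higher; 5 of 12 adaptors, led by Vav2 (-1.34); 4 of 7 in the protein kinase C branch, among them Prkcb (-1.85); 3 of 10 in the calcium branch, led by Itpr1 (-2.08); and 1 of 4 T cell counterparts, Lck (-1.40). These are log2 fold changes called by edgeR on the TMM scale, and the 0.86 shift of the scale applies to the plasma cell values as above.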

How the data were processed

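Libraries were made with 10x Genomics 3′ v2 chemistry. The deposited files are unfiltered matrices with the UMI counts of each gene in each barcode, which the authors made with Cell Ranger (2.0.1 in the submitters' processing notes, 3.1.0 in the matrix headers) for the build GRCm38; the counts were not normalized. Cells were barcodes with at least the 99th percentile of UMIs among the top 3000 barcodes divided by 10 (1745 to 4399 UMIs), 200 or more genes detected, and no more than 10% of UMIs from mitochondrial genes. The highest Scrublet scores (scanpy 1.11.5) were removed as doublets, 0.8% per 1000 cells (3541 in all), because the automatic threshold marked few. UMIs were summed per library and class, and tested across all genes with edgeR 4.0.16 (R 4.3.3; TMM, filterByExpr, quasi-likelihood, Benjamini-Hochberg at 0.05), with mouse or library as block where both sides came from it; class comparisons needed 30 cells per class. DESeq2 1.42.0 and other gates, filters, scales and left-out libraries were alternatives. The edgeR script was checked on simulated counts. Shares came from cells thinned to 1000 UMIs. SEs cover the spread between libraries, each group's from separate mice, and counting error. The members and gene lists were chosen with earlier results of these data known. The levels of all 10 genes were described, but the text does not give a fold change for each of them in every comparison. Of the lists, the genes named were at most 4 called genes each by size of change, or the 4 with the lowest p where fewer were called. The 5 genes most like the members' mean were also named. A few genes of the lists are not reported here.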

Additional observations from a re-analysis of the deposited data

Results flagged for a closer look

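Member levels in B cells were screened for a library far from the rest of its group, in the 40 combinations of gene and group with 4 or 5 libraries; 5 stood out, and chance alone sets about 1 in 20 apart. Lyn was at 89.4 CPM in Eµ-PRMT5 spleen 4, with the next at 298 CPM. Syk was at 183 CPM in Eµ-TCL1 spleen 3, with the next at 231 CPM. In Eµ-PRMT5/TCL1 spleen 4, Blnk was at 745 CPM, with the next at 274 CPM, and Lyn at 520 CPM, with the next at 328 CPM. This library also had the highest share of cycling B cells of its group (31.97%) and the highest sum of the 8 B cell markers of all libraries (3778 CPM). In B cells with no cycling UMI, the highest levels among the 19 libraries other than Eµ-PRMT5 spleen 4 were 747 CPM for Blnk and 593 CPM for Lyn. Ptpn6 was at 480 CPM in Eµ-PRMT5/TCL1 lymph node 1, with the next at 226 CPM; this library kept 658 cells, the fewest of all. What sets these libraries apart was not tested.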

How the results depend on the processing

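The count of members called stayed within 1.5 times its reported value under every alternative run except DESeq2, which called 1 member (lower) for Eµ-PRMT5 against Eµ-TCL1 spleens and 2 members (lower) for lymph node against spleen, where edgeR called 0. Leaving out single libraries or mice left it at 0 in the 6 comparisons within B cells, at 7 to 8 in B against T and at 6 to 8 in plasma against B cells. The replicate number of the labels did not pair mice between genotypes (correlations of -0.067 to 0.19): with it as a replicate block the 4 genotype comparisons still had 0 members called, and 11 genes were called in place of 3 for Eµ-PRMT5 against Eµ-TCL1 and 0 in place of 1 for Eµ-PRMT5/TCL1 against Eµ-TCL1 spleens; without the mouse or library block the tissue and interaction comparisons had 0 members, B against T 7 and plasma against B 6. The counts of all genes called were 674 under DESeq2 against 3 under edgeR for Eµ-PRMT5 against Eµ-TCL1 (1 to 288 when libraries were left out, the most without Eµ-PRMT5 spleen 4), 21 against 1 and 114 against 0 for the other spleen comparisons, 64 against 0 in lymph node (7 without Eµ-TCL1 lymph node 1), 290 against 6 between tissues (1 to 56 under other settings and 0 to 53 without single mice, the most without the mouse of Eµ-PRMT5/TCL1 lymph node 1), 4989 to 8233 against 6114 for B against T, and 2242 to 7434 against 3807 for plasma against B. The cause was not tested.

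Signs changed in 87 of the log2 fold changes recomputed for single members. Apart from Blnk in plasma cells, -0.26 on total UMIs, no such value was called by edgeR before or after. For Eµ-PRMT5 against Eµ-TCL1 spleens the values were -0.058 (Blk) and -0.063 (Ptpn6) with the replicate block, -0.024 (Blnk) and 0.011 (Lyn) without cycling cells and 0.048 (Lyn) on total UMIs. For Eµ-PRMT5/TCL1 against Eµ-TCL1 spleens they were 0.053 (Cd79a) and 0.064 (Cd79b) with Xist, a marker of female cells, as covariate, and 0.084 (Blnk) on total UMIs, and against Eµ-PRMT5 0.0028 (Blnk) on total UMIs. In lymph node, Syk was at -0.049 with Cd3g out of the gate, -0.087 on total UMIs, -0.14 with Xist and -0.17 with the replicate block, and Blk at 0.051 without the Jchain limit, 0.10 with Xist and 0.18 with the block. Pik3cd between tissues, reported as 0.00035, was at -0.00029 with Cd3g out of the gate, -0.022 without the Jchain limit, -0.016 without a count filter, -0.012 with cells from 500 UMIs, -0.0100 without immunoglobulin genes, -0.011 with the gate on other markers, -0.032 on total UMIs and -0.028 without cycling cells. The interaction gave -0.035 (Cd79b), -0.021 (Syk) and -0.013 (Lyn) with the gate on other markers, -0.039 (Syk) with Cd3g out of the gate, -0.0016 (Syk) without cycling cells, 0.011 (Cd79a) without the block, and -0.15 (Cd79b), -0.14 (Syk and Lyn) and -0.094 (Ptpn6) on total UMIs.

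Leaving out single libraries (both tissues of a mouse where they were paired) gave, for Eµ-PRMT5 against Eµ-TCL1 spleens, Blk -0.032 to 0.39, Blnk -0.21 to 0.24, Btk -0.068 to 0.22, Lyn -0.17 to 0.10 and Ptpn6 -0.17 to 0.16. For Eµ-PRMT5/TCL1 against Eµ-TCL1 spleens it gave Blnk -0.50 to 0.075 and Syk -0.019 to 0.25, and against Eµ-PRMT5, Blk -0.10 to 0.35, Blnk -0.57 to 0.11 and Btk -0.098 to 0.19. In lymph node it gave Blk -0.32 to 0.43, Cd79a -0.28 to 0.055 and Syk -0.16 to 0.14, and between tissues Blnk -0.17 to 0.064 and Pik3cd -0.051 to 0.046. The interaction ranged, for Blk, from -0.75 to 0.042, for Blnk from -0.34 to 0.14, for Cd79a from -0.17 to 0.094, for Cd79b from -0.16 to 0.14, for Lyn from -0.089 to 0.14, for Plcg2 from -0.027 to 0.34, for Ptpn6 from -0.16 to 0.27 and for Syk from -0.069 to 0.15. The gates with Cd3g or Jchain relaxed and the total-UMI scale were chosen after seeing the data.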
